A study of Homo sapiens with 12 samples.

Results

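The glucose entry genes described here were 8 of the 25369 genes in the deposited tables, and each was found by its gene symbol in both the count table and the RPKM table. They were the facilitative glucose transporter genes SLC2A1, SLC2A3, SLC2A6 and SLC2A8, the hexokinase genes HK1, HK2 and HKDC1, and GPI. They were chosen by name and not by a rule on their values, although earlier results of these data were known. All 8 were measured in all 12 libraries.

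The libraries were poly(A)+ RNA-seq from 3 established human cancer cell lines, RKO (colon carcinoma), A549 (lung adenocarcinoma) and H460 (lung large cell carcinoma). Each line was kept in normoxia or moved to hypoxia (1% O2) for 24 h, with 2 biological replicates per condition. The groups were therefore RKO normoxia, RKO hypoxia, A549 normoxia, A549 hypoxia, H460 normoxia and H460 hypoxia, with no added drug and no engineered allele in the labels. RKO and A549 cells grew in DMEM and H460 cells in RPMI, so that a difference between H460 and the other lines cannot be told apart from a difference of medium. Each line stands for itself, not for its tumor type, and normoxia differed from hypoxia in the oxygen of the incubator.

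Glucose enters most cells through facilitative carriers of the SLC2A (GLUT) family. Hexokinases then add a phosphate that traps the sugar in the cell, and glucose phosphate isomerase turns the product into the fructose form that continues down glycolysis. SLC2A1 (GLUT1) and SLC2A3 (GLUT3) are carriers of the plasma membrane, while SLC2A6 (GLUT6) and SLC2A8 (GLUT8) sit mostly on internal membranes. Several genes of this route are textbook targets of the hypoxia-inducible factors, which bind DNA at short motifs with the core letters ACGTG or GCGTG.

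Sequences around those letters are given first because the core motif is the sequence feature most often tied to oxygen-regulated transcription. RefSeq promoter windows (250 bases before to 50 after a start site, from GRCh38.p14) were found for 7 of the 8 genes, 14 windows in all, and each was placed on GRCh37 by a single exact match. SLC2A3 had no entry. Capitals mark ACGTG or GCGTG on either strand, and CACGTG reads as ACGTG on both strands. The stretches are written 5′ to 3′ on the strand of the gene, with GRCh37 positions. Those of HK2 and GPI were chosen as genes that rose in every line, and those of SLC2A6 as a gene that fell in H460. SLC2A1 also rose in every line, and SLC2A8 and HKDC1 also fell in H460, but their windows held neither motif before the start site. A stretch of HK1 with GCGTG is not shown.
HK2, the first start site, chr2:75061012-75061041, + strand: tagccacggaccaCACGTcccatctcaggc
HK2, the first start site, chr2:75061190-75061219, + strand: agccaatggGCGTGcgCACGTcactgatcc
HK2, the second start site, chr2:75062091-75062120, + strand: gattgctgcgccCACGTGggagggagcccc
HK2, the second start site, chr2:75062136-75062165, + strand: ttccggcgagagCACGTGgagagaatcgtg
HK2, the second start site, chr2:75062177-75062206, + strand: ctgctccgctgccGCGTGgggccgccgggg
HK2, the second start site, chr2:75062214-75062243, + strand: gcgctcgcggaccGCGTGtaggagacgagc
GPI, chr19:34855722-34855751, + strand: aacactgcctgtaACGTGgaaggtgttcga
SLC2A6, chr9:136344395-136344424, - strand: atcctgtcttgggGCGTGaccttcgggggc
SLC2A6, chr9:136344377-136344406, - strand: accttcgggggcgCACGCggtgccggccgc
SLC2A6, chr9:136344299-136344328, - strand: gccccattggccgGCGTGtctctgcagggc

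Both HK2 windows held ACGTG, and the second held CACGTG at 2 places. Among all 35116 windows of the table, 21.4% held ACGTG, 7.3% held CACGTG, 36.5% held GCGTG and 48.4% held ACGTG or GCGTG. The GPI window held ACGTG once, at 162 bases before its start site. The SLC2A6 window held GCGTG at 3 places, all before the start site, whereas the SLC2A1 and HKDC1 windows held it once each, after the start site. None of the 7 HK1 windows held ACGTG and 2 held GCGTG. The SLC2A8 window held neither motif. CG dinucleotides numbered 38 and 34 in the HK2 windows, 33 in that of SLC2A6 and 30 each in those of SLC2A1 and SLC2A8. The HK1 windows had 0 to 37, the GPI window 13 and the HKDC1 window 5, against a median of 14 over all windows. In the annotation used for counting, HK2 began 1472 bases before the first of these start sites and 2515 bases before the second, and GPI began 252 bases before its start site. The HK2 and GPI stretches thus lay within the counted genes and the SLC2A6 stretches outside it. A match of letters describes the window and is not a measured binding site.

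On GRCh37, SLC2A1 lay on chromosome 1 (43391046 to 43424847, minus strand), SLC2A3 on chromosome 12 (8071824 to 8088892, minus), SLC2A6 on chromosome 9 (136336216 to 136344276, minus) and SLC2A8 on chromosome 9 (130159417 to 130170170, plus). HK2 lay on chromosome 2 (75059782 to 75120481, plus) and GPI on chromosome 19 (34855645 to 34893318, plus). HKDC1 (70980059 to 71027315) and HK1 (71029756 to 71161637) were neighbors on the plus strand of chromosome 10, with 2440 bases between them. SLC2A3 and its close copy SLC2A14 were 28031 bases apart. Of the 100-base windows in SLC2A3 transcripts, 3.58% also occurred in SLC2A14, and 2.66% of those of HK2 occurred in the pseudogene HK2P1. Reads were longer than these windows before trimming, and whether they could be assigned there was not tested. The other 6 genes shared no such window with any of 26 relatives compared. SLC2A14 itself had at most 21 counts in any library, against at least 1113 for SLC2A3.

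Total counts ran from 27350424 to 41757584 per library. The 5 hypoxia markers examined (CA9, NDRG1, ADM, PDK1 and VEGFA) had higher mean levels in hypoxia in all 3 lines, and CA9, for instance, went from 2.79 to 63.4 CPM in RKO, from 4.18 to 211 in A549 and from 2.27 to 248 in H460. Markers of tissue origin were sparse: of 5 intestinal genes RKO had only CDX2 above 1 CPM in all libraries, and of 5 lung genes A549 had only NAPSA and H460 none, while the intestinal gene CDH17 was above 1 CPM in every A549 library. Of 4 epithelial genes, KRT8 and KRT18 were above 1 CPM in every library of all 3 lines. CDH1 was below 1 CPM in RKO and H460, and EPCAM in H460. The blood and endothelial markers PTPRC and PECAM1 never passed 3 counts.

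Levels below are CPM, counts scaled to a common library total, after TMM scaling, a normalization that equalizes the bulk of the genes between libraries. A gene was called higher or lower when edgeR's quasi-likelihood test gave a Benjamini-Hochberg adjusted p under 0.1 and the fold change exceeded 1.5. Bulk RNA cannot tell fewer cells of a type from less RNA per cell, and p-values measure the spread between the 2 replicates of each group. All 8 genes passed the filter on low counts in each line. In RKO, 6 of the 8 were called higher and 0 lower, where the shares over the whole table of tested genes were 18.8% and 15.1%. In A549, 4 were called higher and 0 lower, against 2.22% and 0.456% of tested genes. In H460, 5 were called higher and 3 lower, against 24.6% and 27.3%. These fits did not pair the libraries. With libraries paired by replicate number (a block in the fit), the A549 numbers were 4 higher and 2 lower, namely SLC2A8 and HKDC1. In that A549 fit 1189 of all tested genes were called higher and 723 lower, against 316 and 65 unpaired. RKO and H460 kept their numbers among the 8. For the counts of 0 lower, 0 genes in RKO and 2 in A549 had a lower level at an unadjusted p under 0.05 in edgeR, and DESeq2 called 0 and 2 lower. SLC2A1, SLC2A3, HK2 and GPI were called higher in every line.

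**Figure D1:**
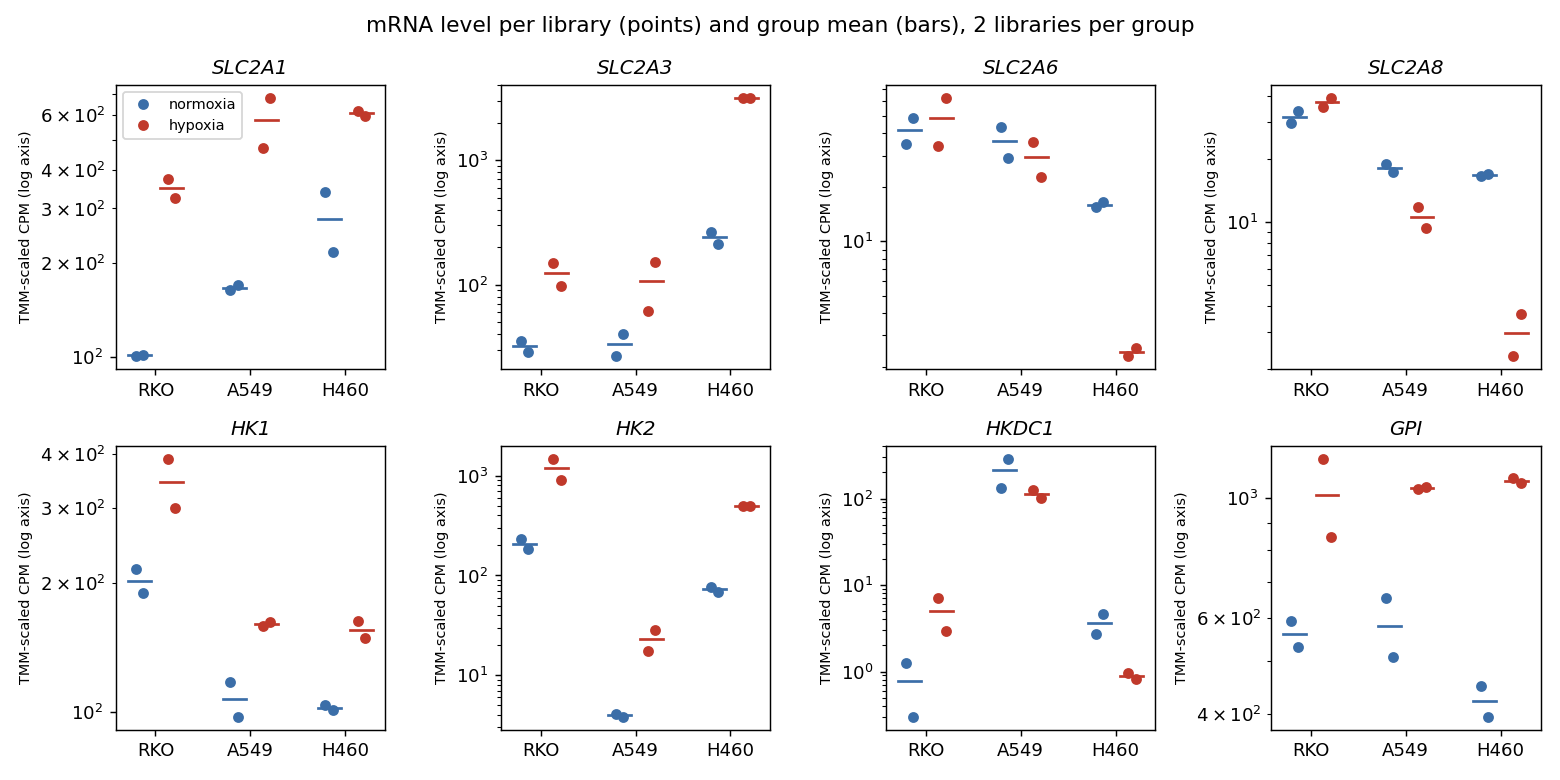
TMM-scaled CPM (log axis, a separate range for each gene) in each library of RKO, A549 and H460, with normoxia in blue and hypoxia in red; points are libraries and bars are means of 2 replicates. SLC2A3 reached 3135 and 3167 CPM in H460 hypoxia, and SLC2A6 and SLC2A8 dropped below 4 CPM there, while HKDC1 was above 100 CPM in A549 only.

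SLC2A1 encodes GLUT1, the carrier of basal glucose uptake. In RKO it stood at 100.4 and 101.3 CPM in normoxia and at 373 and 324 CPM in hypoxia. In A549 the levels were 163 and 170 CPM against 472 and 682, and in H460 they were 338 and 217 CPM against 620 and 594. Hypoxia libraries lay above normoxia libraries in every line, which held for 38.8% of tested genes in RKO, 25.7% in A549 and 42.2% in H460. RKO had a log2 fold change of 1.73 ± 0.15 (SE; adjusted p = 7.71e-05), A549 one of 1.78 ± 0.22 (adjusted p = 0.00609) and H460 one of 1.12 ± 0.16 (adjusted p = 6.00e-05). Averaged over lines, SLC2A1 rose 2.98-fold (adjusted p = 4.03e-07), and 14.8% of genes were called higher and 11.5% lower on that average. Its normoxic level was ordered H460, A549, RKO, and each step passed the test, with H460 1.69-fold above A549 (adjusted p = 0.00554) and A549 1.63-fold above RKO (adjusted p = 0.00688). After hypoxia A549 (577 ± 149 CPM, SD) and H460 (607 ± 18.5 CPM) lay close together and RKO (349 ± 34.5 CPM) remained lower. The 3 log2 fold changes differed by at most 0.66, and the test for a difference between lines gave an adjusted p of 0.115. With the replicate number as a block that adjusted p was 0.0515, which passes, and the H460 effect was then smaller than that of RKO by 0.61 (adjusted p = 0.0452). The RKO to H460 difference was 0.65 (adjusted p = 0.104), and 1.04 with library-size scaling (adjusted p = 0.00933). A549 minus H460 was 0.66 (adjusted p = 0.101). It was 0.60 with the block (adjusted p = 0.0490) and 0.92 with library-size scaling (adjusted p = 0.0209). The size of these differences moved with the H460 normoxia libraries, at 338 and 217 CPM. The H460 rise was 1.44 without H460 normoxia replicate 1 and 0.79 without H460 normoxia replicate 2. The RKO to H460 difference was 0.93 without H460 normoxia replicate 2 and 0.65 without either A549 hypoxia library.

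SLC2A3 encodes GLUT3, a high-affinity carrier best known from neurons. RKO libraries held 35.3 and 28.8 CPM in normoxia and 150 and 97.1 CPM in hypoxia. A549 libraries held 26.8 and 40.5 CPM in normoxia and 61.4 and 153 CPM in hypoxia. H460 libraries held 267 and 213 CPM in normoxia and 3135 and 3167 CPM in hypoxia. H460 was thus highest in both conditions, and its hypoxic libraries carried 74836 and 91991 SLC2A3 counts. RKO showed a 3.69-fold rise (log2 1.88 ± 0.21, adjusted p = 1.82e-04), with 3.18-fold in A549 (1.67 ± 0.38, adjusted p = 0.0814) and 13.1-fold in H460 (3.71 ± 0.13, adjusted p = 1.47e-09). The A549 replicates in hypoxia lay far apart, and the A549 call was lost without normoxia replicate 1 (1.40, adjusted p = 0.102). Without hypoxia replicate 2 the A549 rise was 1.81-fold (0.86, adjusted p = 0.0999), and A549 minus H460 was then -2.86 (adjusted p = 1.54e-04). The effect in H460 was the larger one: A549 minus H460 came to -2.04 ± 0.47 on the log2 scale (adjusted p = 0.00645) and RKO minus H460 to -1.78 ± 0.47 (adjusted p = 0.0119). RKO and A549 differed by 0.26 in effect (adjusted p = 0.799), although without A549 hypoxia replicate 2 that difference was 1.08 (adjusted p = 0.0707). In normoxia H460 stood 7.23-fold above A549 (adjusted p = 8.91e-06) and 7.50-fold above RKO (adjusted p = 4.90e-06), while RKO and A549 did not differ beyond their spread (adjusted p = 0.903).

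SLC2A6 encodes GLUT6, a carrier of internal membranes. RKO libraries held 34.7 and 48.4 CPM in normoxia and 33.7 and 62.8 CPM in hypoxia, and A549 libraries 43.3 and 29.3 CPM against 35.8 and 22.9 CPM. The conditions overlapped in both of these lines. In H460 the levels were 15.5 and 16.5 CPM in normoxia and 2.30 and 2.55 CPM in hypoxia, from 440 and 566 counts against 55 and 74. SLC2A6 fell 6.62-fold in H460 (log2 -2.73 ± 0.16, adjusted p = 3.87e-08). The log2 difference in RKO of 0.16 ± 0.27 (adjusted p = 0.674) and that in A549 of -0.31 ± 0.27 (adjusted p = 0.609) did not pass. Their direction turned with the library left out: RKO was called higher without hypoxia replicate 1 (0.59, adjusted p = 0.0519) but stood at -0.36 without hypoxia replicate 2 (adjusted p = 0.164) and at -0.06 without normoxia replicate 1 (adjusted p = 0.912), and A549 without normoxia replicate 1 was at 0.0025 (adjusted p = 0.999). The effect in H460 differed from RKO by 2.93 (adjusted p = 3.34e-04) and from A549 by 2.42 (adjusted p = 0.00155). In normoxia RKO and A549 were not separated (adjusted p = 0.523), and both exceeded H460, by 2.58-fold (adjusted p = 7.74e-04) and 2.23-fold (adjusted p = 0.00344).

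SLC2A8 encodes GLUT8, also a carrier of internal membranes. In RKO it stood at 29.7 and 33.8 CPM in normoxia and 35.5 and 39.2 CPM in hypoxia. In A549 it stood at 19.1 and 17.4 CPM against 11.9 and 9.35 CPM, and in H460 at 16.7 and 16.95 CPM against 2.30 and 3.65 CPM. The hypoxia libraries were all above normoxia in RKO, which held for 38.8% of the genes tested there, while 31.6% had all of them below. They were all below normoxia in A549 and H460, where 23.9% and 44.2% of the genes did the same. SLC2A8 fell 5.61-fold in H460 (log2 -2.49 ± 0.19, adjusted p = 3.15e-07). The RKO change of 0.17 ± 0.17 (adjusted p = 0.447) and the A549 change of -0.78 ± 0.23 (adjusted p = 0.158) did not pass. With the replicate number as a block the A549 change was -0.79 (adjusted p = 0.00542) and passed, as it did without hypoxia replicate 1 (-0.97, adjusted p = 0.0586). All 3 pairs of lines differed in effect: RKO and H460 by 2.71 (adjusted p = 3.89e-05), A549 and H460 by 1.71 (adjusted p = 0.00107) and RKO and A549 by 1.00 (adjusted p = 0.0401). The last of these was lost without RKO normoxia replicate 1 (adjusted p = 0.140). In normoxia RKO exceeded A549 by 1.76-fold (adjusted p = 0.00179) and H460 by 1.88-fold (adjusted p = 8.25e-04), while A549 and H460 did not differ beyond their spread (adjusted p = 0.707).

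**Figure D2:**
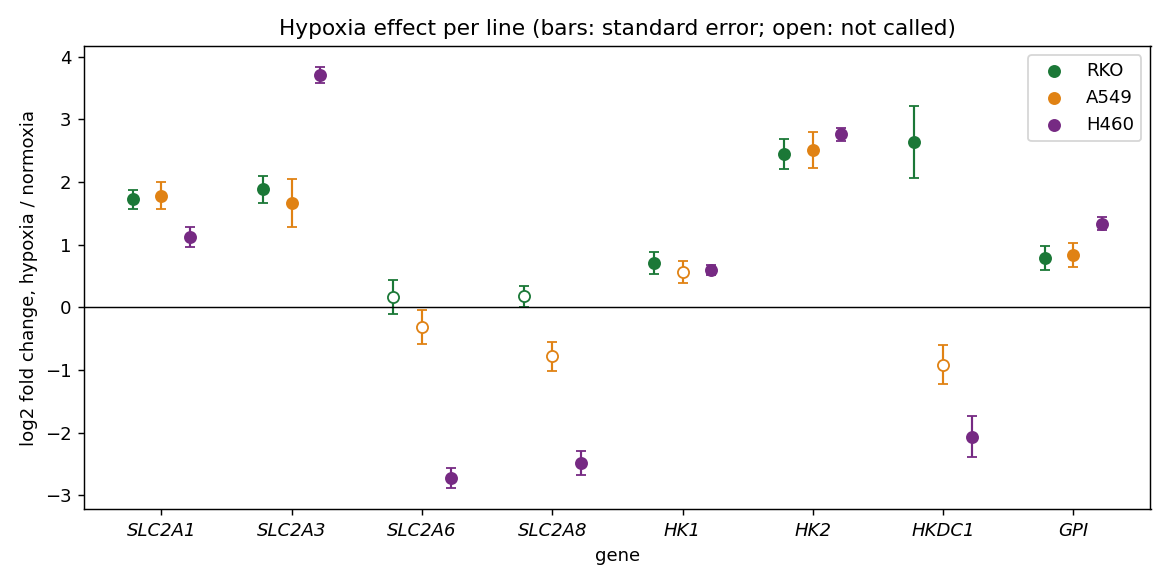
Log2 fold change of hypoxia over normoxia for each of the 8 genes in RKO (green), A549 (orange) and H460 (purple), with bars for the standard error; filled points were called. The 3 lines lie together for HK1 and HK2, whereas H460 stands apart at 3.71 for SLC2A3, -2.73 for SLC2A6 and -2.49 for SLC2A8, and RKO stands apart at 2.64 for HKDC1.

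RPKM, which divides by gene length, allowed the 4 transporters to be set against each other within a library. Their summed RPKM was 66.5 and 75.4 in RKO normoxia and 175 and 176 in RKO hypoxia. It was 79.9 and 80.2 against 161 and 230 in A549, and 180 and 135 against 765 and 811 in H460. SLC2A1 gave the largest share in RKO and A549 in both conditions. Its share of the sum went from 41.4% ± 2.31 (SD, n = 2) to 58.4% ± 2.30 in RKO and from 59.3% ± 2.23 to 78.3% ± 0.335 in A549. H460 went the other way, as the SLC2A1 share went from 49.7% ± 4.75 to 17.1% ± 0.540 and the SLC2A3 share from 40.7% ± 2.43 to 82.7% ± 0.488. SLC2A3 RPKM was 0.735 and 0.915 times that of SLC2A1 in H460 normoxia and 4.71 and 4.97 times in hypoxia, whereas it remained below that of SLC2A1 in every RKO and A549 library. SLC2A6 and SLC2A8 gave 24.4% and 21.96% of the RKO sum in normoxia, and 0.0984% and 0.142% of the H460 sum in hypoxia.

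HK1 encodes the hexokinase that most tissues express. RKO libraries held 216 and 189 CPM in normoxia and 391 and 299.8 CPM in hypoxia. A549 libraries held 117 and 97.3 CPM against 158 and 162 CPM, and H460 libraries held 104 and 100.7 CPM against 163 and 148 CPM. The hypoxia libraries lay above the normoxia libraries in every line, as for 38.8% of tested genes in RKO, 25.7% in A549 and 42.2% in H460. HK1 rose 1.63-fold in RKO (log2 0.71 ± 0.17, adjusted p = 0.00827) and 1.51-fold in H460 (0.60 ± 0.086, adjusted p = 6.12e-05). In A549 the change was 0.57 ± 0.18 (adjusted p = 0.172). These values sat at the edge of the fold threshold: HK1 was below it in RKO without hypoxia replicate 1 (0.56), and in H460 without normoxia replicate 1 (0.58), normoxia replicate 2 (0.54) or hypoxia replicate 1 (0.55). Scaling by library size alone, which shifted the H460 changes of all genes by a median of -0.35, gave 0.24 in H460. The effects of hypoxia were not separated between lines (adjusted p = 0.725, or 0.0768 with library-size scaling), with a difference of 0.18 ± 0.21 between RKO and A549 and of 0.16 ± 0.21 between RKO and H460. In normoxia HK1 was higher in RKO than in A549 (1.91-fold, adjusted p = 7.74e-05) and H460 (1.98-fold, adjusted p = 4.72e-05), and A549 and H460 were not separated (adjusted p = 0.792).

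HK2 encodes the hexokinase of muscle and of many tumors. RKO libraries held 234 and 182 CPM in normoxia and 1484 and 898 CPM in hypoxia. A549 libraries held only 4.11 and 3.84 CPM in normoxia, from 171 and 155 counts, and 17.7 and 28.1 CPM in hypoxia. H460 libraries held 77.1 and 68.4 CPM in normoxia and 491 and 501 CPM in hypoxia. HK2 therefore kept its order of RKO, H460 and A549 in both conditions, and hypoxic A549 stayed below normoxic H460. The gene rose 5.46-fold in RKO (log2 2.45 ± 0.24, adjusted p = 1.05e-04), 5.72-fold in A549 (2.52 ± 0.29, adjusted p = 0.0054) and 6.78-fold in H460 (2.76 ± 0.099, adjusted p = 1.61e-09). Averaged over lines the rise was 6.09-fold (adjusted p = 2.67e-08), the largest of the 8 genes on that measure. The effects were not separated between lines (adjusted p = 0.753), with differences of -0.02 ± 0.33 for RKO minus A549, -0.26 ± 0.33 for RKO minus H460 and -0.24 ± 0.35 for A549 minus H460. The normoxic levels did differ, by 52.9-fold between RKO and A549 (adjusted p = 3.08e-10), 18.5-fold between H460 and A549 (adjusted p = 9.28e-09) and 2.85-fold between RKO and H460 (adjusted p = 5.45e-05).

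HKDC1 encodes a further member of the hexokinase family, named for its hexokinase domains. A549 libraries held 133 and 289 CPM in normoxia and 125 and 100.3 CPM in hypoxia. RKO libraries held 1.25 and 0.30 CPM in normoxia, from 47 and 12 counts, and 7.10 and 2.96 CPM in hypoxia. H460 libraries held 2.72 and 4.64 CPM in normoxia and 0.96 and 0.83 CPM in hypoxia, from 77 and 159 counts against 23 and 24. The conditions did not overlap in any line, with hypoxia above normoxia in RKO and below it in the other lines. Among all tested genes 38.8% lay above in this way in RKO, and 23.9% below in A549 and 44.2% in H460. In RKO the gene passed the filter of 0.5 CPM in at least 2 libraries with both hypoxia libraries and normoxia replicate 1. HKDC1 rose 6.23-fold in RKO (log2 2.64 ± 0.57, adjusted p = 0.00482) and fell 4.18-fold in H460 (-2.06 ± 0.32, adjusted p = 1.08e-04). The size of the RKO rise rested on single libraries. It was 15.8-fold without normoxia replicate 1, 3.84-fold without normoxia replicate 2 and 3.85-fold without hypoxia replicate 1. Without normoxia replicate 1 the normoxia library left held 0.30 CPM, under the filter, so HKDC1 entered that fit through the hypoxia libraries alone. In A549 the change was -0.91 ± 0.31 (adjusted p = 0.212), and it was called lower with the replicate number as a block (-0.82, adjusted p = 0.00174), without normoxia replicate 1 (-1.36, adjusted p = 0.00660) and without hypoxia replicate 1 (-1.08, adjusted p = 0.00270). Without normoxia replicate 2, the library at 289 CPM, it was -0.26 (adjusted p = 0.653), a fold of 1.195 against 1.88 with all libraries. The RKO effect differed from that in A549 by 3.62 (adjusted p = 0.00762) and from that in H460 by 4.76 (adjusted p = 7.86e-04). With a library left out, both differences still passed, ranging from 2.86 to 4.96 against A549 and from 4.01 to 6.12 against H460, lowest without RKO hypoxia replicate 1 and highest without RKO normoxia replicate 1. Without RKO normoxia replicate 2 they were 2.91 and 4.07, and without A549 normoxia replicate 2 the difference against A549 was 2.96. A549 and H460 differed by 1.15 in effect (adjusted p = 0.262), by 1.23 (adjusted p = 0.0957) with the block, and by 1.81 (adjusted p = 0.0644) without A549 normoxia replicate 2. In normoxia A549 exceeded RKO by 272-fold (adjusted p = 1.61e-08) and H460 by 56.1-fold (adjusted p = 2.12e-07), and H460 exceeded RKO by 4.85-fold (adjusted p = 0.00261).

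**Figure D3:**
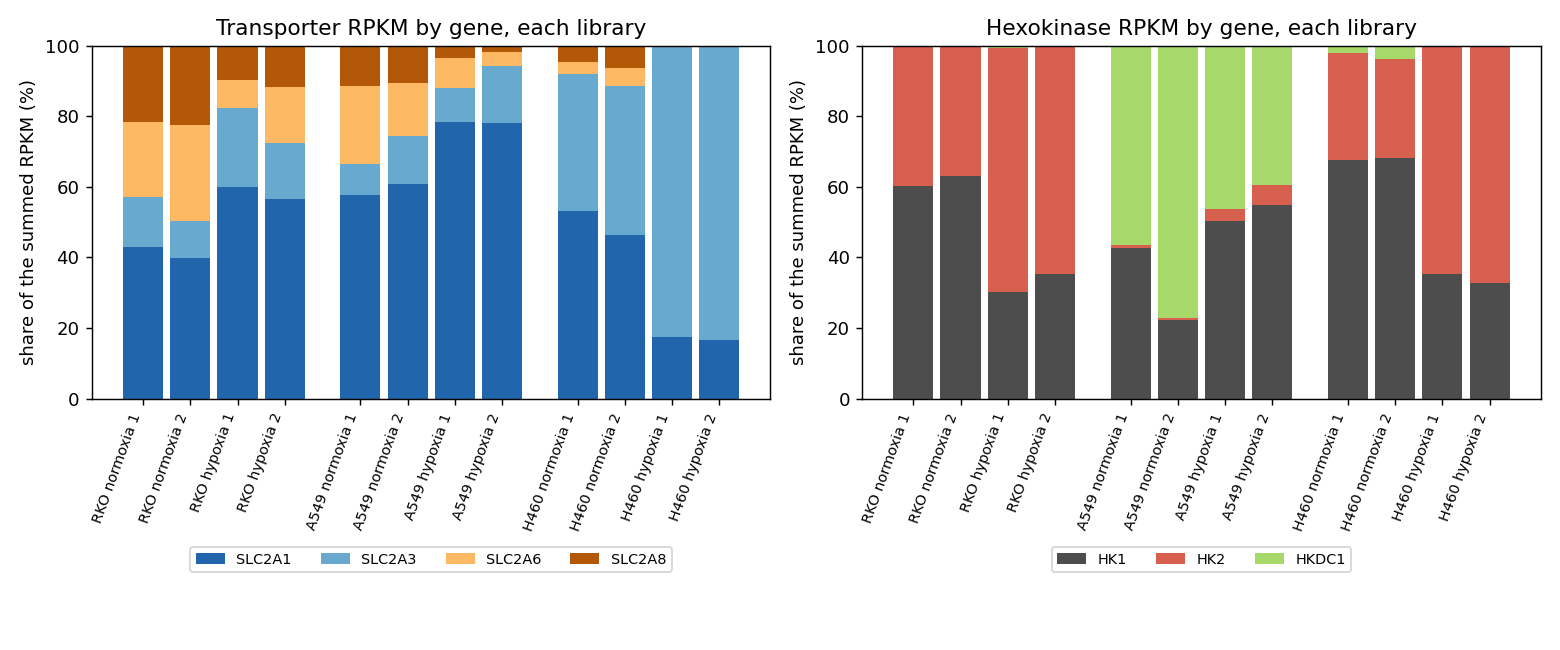
Share of the summed transporter RPKM (left) and of the summed hexokinase RPKM (right) given by each gene, in percent, as 1 stacked bar per library. In H460 hypoxia SLC2A3 filled 82.3% and 83.01% of the transporter sum, and HKDC1 filled 39.5% to 77.1% of the hexokinase sum in A549 and under 4% elsewhere.

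Per length, the lines used different hexokinase transcripts. HK1 gave 61.6% ± 2.10 of the summed hexokinase RPKM in RKO normoxia and 67.9% ± 0.543 in H460 normoxia, and HK2 most of the rest. After hypoxia HK2 led in both lines, going from 38.1% ± 1.89 to 66.7% ± 3.56 in RKO and from 29.2% ± 1.67 to 65.7% ± 1.78 in H460. In A549 HK2 went from 0.719% ± 0.263 to 4.58% ± 1.67, with a fold change of 5.72 in CPM. HKDC1 gave 66.8% ± 14.7 of the A549 sum in normoxia and 42.8% ± 4.76 in hypoxia, and HK1 32.5% ± 14.4 and 52.6% ± 3.10. The summed hexokinase RPKM was 87.4 and 75.9 in RKO normoxia and 312 and 223 in hypoxia, and 37.0 and 36.4 against 85.1 and 88.3 in H460. In A549 the conditions overlapped, with 66.5 and 107 in normoxia and 72.3 and 66.6 in hypoxia, and there HKDC1 in normoxia replicate 2 set the highest value.

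GPI encodes glucose phosphate isomerase. RKO libraries held 593 and 531 CPM in normoxia and 1181 and 845 CPM in hypoxia. A549 libraries held 653 and 509 CPM against 1037 and 1046 CPM, and H460 libraries held 450 and 395 CPM against 1086 and 1063 CPM. Hypoxia libraries lay above normoxia libraries in every line, as for 38.8% of tested genes in RKO, 25.7% in A549 and 42.2% in H460. The 3 lines reached similar means in hypoxia (1013 ± 237, 1041 ± 6.25 and 1075 ± 16.2 CPM, SD). GPI rose 1.72-fold in RKO (log2 0.78 ± 0.19, adjusted p = 0.00810), 1.78-fold in A549 (0.83 ± 0.19, adjusted p = 0.0814) and 2.53-fold in H460 (1.34 ± 0.10, adjusted p = 2.70e-07). The A549 call was lost without normoxia replicate 2 (0.66, adjusted p = 0.258). The effects were not separated between lines (adjusted p = 0.163), but with the replicate number as a block they were (adjusted p = 0.0394), with the larger rise in H460 (RKO minus H460, -0.53, adjusted p = 0.0329). That difference, -0.51 (adjusted p = 0.139) without the block, was -0.75 (adjusted p = 0.0333) without RKO hypoxia replicate 1. A549 minus H460 was -0.50 without the block (adjusted p = 0.143) and -0.50 with it (adjusted p = 0.0422). It remained at -0.50 without either RKO hypoxia library and was -0.67 without A549 normoxia replicate 2. In normoxia no pair of lines differed by more than 1.36-fold.

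Over the 8 genes, the hypoxia effect differed between lines for SLC2A3, SLC2A6, SLC2A8 and HKDC1, that is 4 of 8, where 48.8% of all 15595 genes in the fit across lines did so. RKO and A549 differed for 2 of 8 (SLC2A8 and HKDC1), against 14.6% of genes. H460 differed from RKO for 4 of 8, against 37.6%, and from A549 for 3 of 8, against 36.0%. In normoxia, RKO differed from A549 for 5 of 8 genes and from H460 for 7 of 8, and the lung lines differed for 5 of 8, against 60.2%, 61.9% and 52.1% of genes. The shares among the 8 were thus near those of the whole table in several of these comparisons. Averaged over lines SLC2A6 fell by 0.93 on the log2 scale (adjusted p = 5.08e-04) and SLC2A8 by 1.01 (adjusted p = 1.03e-05). In the fits within lines only H460 was called for them, at -2.73 and -2.49. RKO stood at 0.16 and 0.17, and A549 at -0.31 and -0.78. HKDC1 was at -0.08 ± 0.31 on average (adjusted p = 0.892), from effects of opposite sign, and at 0.37 without RKO normoxia replicate 1 (adjusted p = 0.446).

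The rest of the glucose route was followed through 5 gene lists with 52 names, 51 of them in the tables. Of 39 tested genes in RKO, 14 were called higher and 3 lower, with a median log2 change of 0.26. The A549 numbers were 10 higher and 0 lower of 39 with a median of 0.35, and in H460 21 higher and 4 lower of 37 with a median of 0.64. Over all tested genes the medians of RKO, A549 and H460 were 0.01, -0.01 and -0.04. The shares of all tested genes called higher were 18.8%, 2.22% and 24.6%, and those called lower 15.1%, 0.456% and 27.3%. Several counts of the short lists below were near those shares in RKO and H460. The 8 glucose entry genes had medians of 1.26, 0.70 and 0.86.

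**Figure D4:**
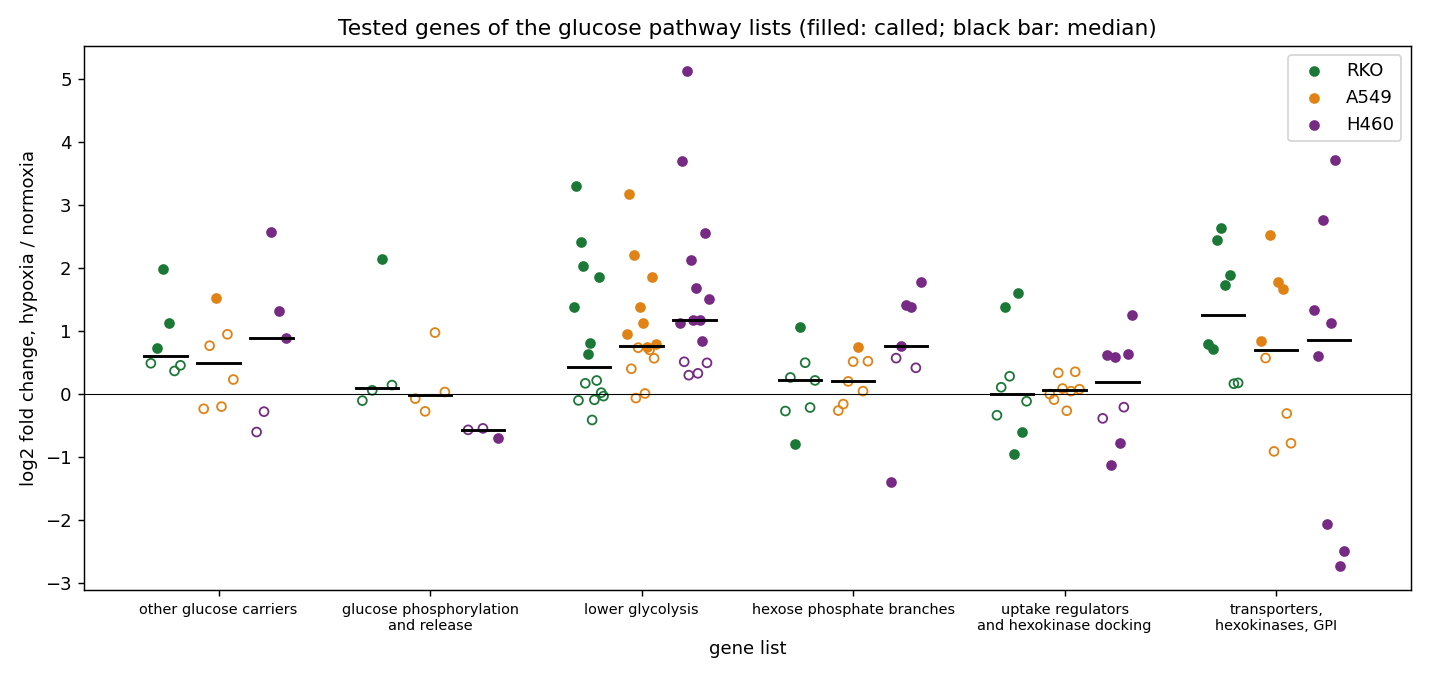
Log2 fold change of hypoxia over normoxia for each tested gene of the 5 pathway lists and for the 8 glucose entry genes, by line; filled points were called and black bars are list medians. Lower glycolysis had 7, 8 and 10 of 14 tested genes called higher in RKO, A549 and H460 and 0 called lower. Over all tested genes the shares were 18.8%, 2.22% and 24.6% higher and 15.1%, 0.456% and 27.3% lower.

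Lower glycolysis, the steps after the isomerase, had 14 tested genes in each line. In RKO 7 of them were called higher, with 8 in A549 and 10 in H460, and 0 were called lower, with medians of 0.42, 0.77 and 1.17. DESeq2 also called 0 lower, and 1 gene was lower in RKO at an unadjusted p under 0.05 in edgeR. The phosphofructokinase gene PFKL rose in all 3 lines, by 0.82, 1.12 and 1.68 on the log2 scale in RKO, A549 and H460. The aldolase gene ALDOA rose by 1.37, 0.95 and 1.12, and its relative ALDOC by 3.30, 3.17 and 3.70. The phosphoglycerate kinase gene PGK1 rose by 1.85, 1.86 and 2.55, and the enolase gene ENO2 by 2.41, 2.20 and 5.13. LDHA, which makes lactate from pyruvate, rose by 0.63, 1.38 and 1.18. These 6 genes, with the carrier gene SLC2A13, were the ones of the lists called higher in every line, and 0 were called lower in every line.

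Among the other glucose carriers, RKO had 3 called higher out of 6 tested, A549 1 out of 6 and H460 3 out of 5, and 0 were called lower. They were SLC2A11, SLC2A12 and SLC2A13 in RKO, SLC2A13 in A549, and SLC2A12, SLC2A13 and SLC50A1 in H460, all named after their values were seen except SLC2A13. DESeq2 called 0 lower too, and 1 gene was lower in H460 at an unadjusted p under 0.05 in edgeR. SLC2A13, a carrier of myo-inositol, rose in all 3 lines, its log2 change being 1.132 in RKO, 1.52 in A549 and 1.32 in H460. Its mean level was 7.996 and 7.81 CPM in RKO and A549 normoxia and 217 CPM in H460 normoxia, where it reached 544 CPM in hypoxia. The list of glucose phosphorylation and release, with HK3 and the glucose phosphatase genes, had 4 tested genes in RKO and A549 and 3 in H460. In it 1 gene was called higher in RKO, and SLC37A4, which carries glucose phosphate into the endoplasmic reticulum, was called lower in H460. In A549 edgeR and DESeq2 called 0, and 0 had an unadjusted p under 0.05. HK3 had at most 5 counts in any library. Beside both lists, the shares of all tested genes called higher were 18.8%, 2.22% and 24.6% in RKO, A549 and H460. Those called lower were 15.1%, 0.456% and 27.3%.

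The branches that leave the route at the hexose phosphates had 1 of 7 tested genes higher and 1 lower in RKO, 1 higher and 0 lower in A549, and 4 higher and 1 lower in H460. The genes higher were MPI in RKO, PGM1 in A549, and PGM1, MPI, UGP2 and GFPT2 in H460. GFPT2, which feeds the hexosamine pathway, fell in RKO (-0.80, adjusted p = 0.0459) and rose in H460 (0.76, adjusted p = 2.46e-05). Regulators of uptake and of hexokinase docking had 2 higher and 2 lower of 8 in RKO, 0 in either direction in A549, and 4 higher and 2 lower in H460. TXNIP and ARRDC4 were higher and VDAC1 and STOML2 lower in RKO, and VDAC1, VDAC2, GSK3B and AKT2 were higher and ARRDC4 and STOML2 lower in H460. ARRDC4, an arrestin-domain protein that restrains glucose uptake, was up by 1.37 in RKO (adjusted p = 7.45e-04) and fell in H460 (-1.14, adjusted p = 3.43e-05). VDAC1, the mitochondrial outer membrane channel to which hexokinases dock, fell in RKO (-0.61, adjusted p = 0.0108) and rose in H460 (0.64, adjusted p = 9.36e-05). Apart from GFPT2, ARRDC4 and VDAC1, these genes were named after their values were seen. Over all 5 lists in A549, 0 genes were lower at an unadjusted p under 0.05 in edgeR, and DESeq2 and the fit with the replicate number as a block also called 0 lower. Across the whole table that block moved the A549 calls to 1189 genes higher and 723 lower, against 316 and 65 without it.

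For each of the 8 genes, the most similar profiles in the table were ranked by the root mean square difference of log2 CPM over the 12 libraries, each gene centered on its own mean, among 13308 genes. The nearest were SMS (0.13) for GPI and CRAT (0.14) for HK1, followed by AGMAT (0.27) for SLC2A8, MYH3 (0.32) for SLC2A6 and IGIP (0.35) for SLC2A1, whose second neighbor was VEGFA (0.36). SLC2A3, HK2 and HKDC1 lay farther from their nearest genes, which were GATSL3 (0.66), SMAD9 (0.75) and FAM49A (0.77). Profiles were centered but not scaled, so this distance tends to be larger for genes with a wide range of levels. SLC2A6 and SLC2A8 lay 0.62 apart. The ranking describes these 12 libraries, which share 3 lines and 1 treatment.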

How the data were processed

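Strand-specific poly(A)+ libraries were made with the Illumina TruSeq mRNA kit and read from a single end. The authors trimmed low-quality 3′ ends, aligned the reads to GRCh37/hg19 with the UCSC gene annotation, dropped poorly mapped alignments, flagged duplicates and made strand-aware read counts per gene. The submitters' processing notes name TopHat2 2.0.13, Bowtie2 2.2.3.0, SAMtools 1.3.1, Picard 1.129, HTSeq 0.6.1 and FastQC 0.11.5. The deposited count of each gene was the input of all tests. The deposited RPKM, which the authors computed as the count over gene length and the library's summed counts, served for levels between genes and as an alternative. No sample column was left unused (0). Start positions were counted from 0 in the files, and 1 was added.

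Only genes that exceeded 0.5 CPM in 2 or more of the libraries fitted were tested with edgeR 4.0.16 (TMM factors, glmQLFit and glmQLFTest) in R 4.3.3, within each line and, for differences between lines, over all 12 libraries. P-values were adjusted by the Benjamini-Hochberg method over all genes of the fit, and a call needed an adjusted p under 0.1 and, for effects and levels, a fold change over 1.5. Alternatives were DESeq2 1.42.0, limma 3.58.1 on log2(RPKM + 0.1) or log2(RPKM + 1), other scalings and filters, a block for the replicate number, a fold over 2, and leaving out each library. The scripts were tested on simulated data. The labels do not say what the replicate number marks. Libraries with the same number deviated together from their group means, with correlations over 15595 genes of 0.36 in RKO, 0.38 in A549 and 0.15 in H460. The fits with a block therefore took the numbers to pair the samples. The main fits, and the shares set beside them, did not use the pairing. Replicates differed by more than sampling noise, their chi-square divided by its degrees of freedom being 10.1 to 75.9 over genes, and were counted separately.

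The genes and lists were chosen with earlier results of these data known. All 8 glucose entry genes are named throughout. Of the lists, genes called one way in every line or opposite ways in different lines are named, besides SLC2A14 and those said to be chosen later, and the nearest profile is named for each of the 8. Promoter windows came from RefSeq (GRCh38.p14). Counts limit precision chiefly for HKDC1 in RKO and H460 and for SLC2A6 and SLC2A8 in H460 hypoxia, and the TMM factors of the H460 hypoxia libraries (0.791 and 0.837) were the lowest of all. Some genes of the lists are counted but not reported here by name.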

Additional observations from a re-analysis of the deposited data

Results flagged for a closer look

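For 4 of the 8 genes the response to hypoxia differed between lines by a test of the difference itself in edgeR over all 12 libraries. The same test passed for 48.8% of all 15595 genes, so the count was near the share of the whole table. The difference passed for 37.6% of genes between RKO and H460 and for 36.0% between A549 and H460. SLC2A3 rose less in A549 than in H460, with a difference of -2.04 on the log2 scale (adjusted p = 0.00645). SLC2A6 differed by 2.93 between RKO and H460 (adjusted p = 3.34e-04), as its level fell in H460 in both libraries and overlapped between conditions in RKO. SLC2A8 differed by 2.71 between RKO and H460 (adjusted p = 3.89e-05). HKDC1 differed by 4.76 between RKO and H460 (adjusted p = 7.86e-04) and was the member of the group that was called in opposite directions, on 12 to 287 counts per library in RKO and 23 to 159 in H460. H460 was also the line in RPMI medium, so that line and medium cannot be told apart in these differences.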

How the results depend on the processing

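No effect, average or difference that passed the test changed sign in any alternative. Among those that did not pass, the sign changed 44 times, 35 of them on leaving out a library. On log2(RPKM + 1), which understates low genes, HK2 in A549 was 1.37 and HKDC1 0.98 in RKO and -0.76 in H460, and SLC2A6 in H460 was -2.09. The number of the 8 genes called higher in A549, 4, was 2 with library-size scaling, 2 with limma on log2(RPKM + 0.1), 2 on log2(RPKM + 1) and 0 on log2(RPKM + 1) without a filter. The number called lower in A549, 0, was 2 with DESeq2, 1 without a filter, 1 in the fit of all 12 libraries, 2 with the replicate block and 0 to 2 when each library was left out (1 without normoxia replicate 1, 2 without hypoxia replicate 1). Over all tested genes in A549 the block called 1189 higher and 723 lower, against 316 and 65 in the main fit. Shares of all genes under the other settings are not given, so those counts of members cannot be set against them. With the replicate block SLC2A8 and HKDC1 gained the A549 call, and SLC2A1 and GPI passed the test between lines. The HKDC1 difference between A549 and H460 passed too. The pairing changed no other call among the 8 genes. Library-size scaling gave 6 instead of 10 list genes higher in A549 and 9 instead of 4 lower in H460, and it took SLC2A3 (adjusted p = 0.141) and GPI (adjusted p = 0.124) below the threshold in A549. The median change of all genes moved by 0.08 (RKO), -0.09 (A549) and -0.35 (H460) under that scaling. The cause of the other shifts was not tested.

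With all SLC2A genes in the sum, the SLC2A1 share was 36.9% in RKO normoxia, 53.4% in RKO hypoxia, 54.1% in A549 normoxia, 74.6% in A549 hypoxia, 39.6% in H460 normoxia and 15.7% in H460 hypoxia. The SLC2A3 share was then 32.4% in H460 normoxia and 76.0% in hypoxia, the SLC2A8 share 19.6% in RKO normoxia and 9.98% in A549 normoxia, and the SLC2A6 share 0.0906% in H460 hypoxia, since more genes entered the sum. The counts of genes that differed between lines, in effect or in normoxia, moved by at most 1.5 times in every alternative run. Depth and 2 replicates gave log2 changes a standard error with medians of 0.18 (RKO), 0.22 (A549) and 0.11 (H460), so a change of 1.5-fold was least resolved in A549.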

Other observations

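Summed over each family and per length, transporter and hexokinase transcripts stood in different proportions in the 3 lines. The ratio of summed transporter RPKM to summed hexokinase RPKM was 0.761 and 0.994 in RKO normoxia and 0.561 and 0.789 in RKO hypoxia, so that the conditions overlapped. In A549 it was 1.202 and 0.749 in normoxia and 2.23 and 3.46 in hypoxia. In H460 it was 4.86 and 3.71 in normoxia and 8.998 and 9.18 in hypoxia. The hypoxia libraries thus lay above the normoxia libraries in A549 and H460 and not in RKO, a difference between lines that was not tested.

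The ratio of HK2 to HK1 RPKM crossed 1 in RKO, from 0.656 and 0.583 to 2.29 and 1.81, and in H460, from 0.450 and 0.410 to 1.83 and 2.04. In A549 it went from 0.0212 and 0.0239 to 0.0675 and 0.105.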
